A study of Mus musculus with 7 samples.

Results

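Cells are driven into apoptosis from the surface, by death receptors, or from the mitochondrion, and both routes end in caspases, proteases that cut their substrates after an aspartate. Neutrophils die by apoptosis as part of their normal short life, and in an injured tissue that death is followed by their removal by macrophages. The genes described here were 9 of the 16047 in the deposited table, chosen by symbol from the apoptosis machinery outside the BCL2 family, and all 9 were present. They encode the receptors Fas and Tnfrsf10b, the initiator caspases Casp8 and Casp9, the scaffold Apaf1, the caspase-8 inhibitor Cflar, and the inhibitor of apoptosis proteins Xiap, Birc2 and Birc3. No gene of the 9 had an adjusted p under 0.05 between the treatments compared, against 0.625% of all tested genes. For 7 of them the 95% interval of the difference lay within 2-fold (74.7% of all tested genes), or for 6 of 9 under 3 other ways of processing. Casp9 alone was lower in every MC-21 library than in every PBS library, and 1 of 9 with groups that do not overlap is close to the 13.3% of all tested genes. Between libraries, 1 per liver, Fas varied 4.17-fold and Tnfrsf10b 6.56-fold, the latter from a lowest value of 5 reads.

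The libraries came from liver neutrophils of mice with acetaminophen-induced liver injury (AILI), sorted at 24 h from male C57BL/6 mice aged 8 to 12 weeks. All mice of both groups were fasted and then given 300 mg/kg acetaminophen (APAP) intraperitoneally. From 12 h ahead of APAP and at 24 h intervals, 3 mice received 400 µL of conditioned medium holding 29 µg/mL of MC-21, an antibody against CCR2 that ablates Ly6Chi monocytes (MC-21 neutrophils, replicates 2 to 4), and 4 mice received PBS (replicates 5 to 8). From each liver, 50000 cells that were CD11b+, Ly6Clo, CX3CR1-GFP- and Ly6G+ were sorted for 1 library. The antibody acts in the circulation as well as in the liver, every mouse was injured, and no library from an uninjured liver was analysed here, so that the comparison is of injured livers with and without the antibody. The labels give no GFP allele for these mice, although the gate reads GFP. Each library is another mouse, and a p-value sets the difference between the groups against the spread between these 7 libraries. That spread holds differences between mice and the noise of single libraries alike. In bulk RNA of sorted cells, fewer cells of a type and less RNA per cell cannot be told apart.

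The authors' values are RPKM, read numbers scaled to transcript length and to the mapped reads of a library, from libraries read near the 3′ end of transcripts. Whole reads could be read back from low values and gave the depth. In a transcript of 1 kb, 1 RPKM stood for 1.59 (MC-21 replicate 3) to 3.96 (PBS replicate 8) reads per library. All 14 neutrophil markers listed were detected, with summed levels of 25020 to 39395 RPKM in PBS and 37256 to 50466 RPKM in MC-21 libraries, and Ly6g, the marker of the gate, lay between 16.3 and 69.0 RPKM. Of these 14, 11 had an estimate above 0, 2 had groups that did not overlap (Fcgr3 and Cd177) and 1 had an adjusted p under 0.05 (Cd177, log2 fold change 1.66, adjusted p = 0.0415, limma). Among 17 monocyte and macrophage markers, 15 were tested. Of these, 14 had an estimated log2 difference below 0, 9 had groups that did not overlap and 5 had an adjusted p under 0.05. The summed level of the 17 was 1909 to 2268 RPKM in PBS and 1090 to 1575 RPKM in MC-21 libraries. Most of this sum was Apoe, at 1216 to 1674 RPKM in PBS and 803 to 1202 RPKM in MC-21 libraries (adjusted p = 0.145, limma). Ccr2, the target of the antibody, was at 1.91 to 3.26 RPKM in PBS and 0.00 to 0.39 RPKM in MC-21 libraries, and Ccr2, Ms4a7 and Vsig4 were the 3 markers of that list at 0 in some library. The part of these markers in any difference described for the 9 genes was not tested. Summed hepatocyte markers (373 to 782 RPKM in PBS, 357 to 559 RPKM in MC-21), endothelial markers (1289 to 2741 and 1367 to 2771 RPKM) and T and NK cell markers (11.6 to 19.6 and 8.78 to 23.1 RPKM) overlapped between the groups, and those of B cells did not (12.0 to 32.2 and 6.70 to 10.2 RPKM). Of the 4 B cell markers tested, 0 had an adjusted p under 0.05 and 1 had groups that did not overlap.

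On the receptor route, Fas ligand or TRAIL clusters Fas or Tnfrsf10b, the adaptor Fadd is recruited, and Casp8 is activated on it. On the mitochondrial route, cytochrome c released from mitochondria binds Apaf1, which assembles into the apoptosome and activates Casp9. Casp8 and Casp9 then cut the executioner caspases. Cflar resembles Casp8 but holds no catalytic cysteine and takes its place at the receptor, Xiap binds Casp9 and the executioners directly, and Birc2 and Birc3 are ubiquitin ligases that act at TNF receptors and restrain the formation of caspase-8 complexes there. The sequences of the active site set the proteases apart from Cflar, the decoy of Casp8. They are shown as coding DNA of 27 bases from the mm9 annotation, in which the capitals mark the codon of the catalytic cysteine in Casp8 and Casp9 and, in Cflar, the codon at the same distance after the stretch that it shares with Casp8.
Casp8: ttcattcaggctTGCcaaggaagtaac
Casp9: ttcatccaggccTGCggtggtgagcag
Cflar: tttattcagaacTATgagtcgttaggt
The Casp8 stretch lies on the plus strand at chr1:58901451-58901477, in exon 8 of 9 of the transcript. The Casp9 stretch begins in exon 6 of 9 at chr4:141363156-141363177 and its last bases are in exon 7, at chr4:141367454-141367458, also on the plus strand. The Cflar stretch lies at chr1:58809455-58809481, in exon 10 of 11, and its marked codon does not encode cysteine. Reads in 3′ libraries seldom cover such internal exons, and the levels given here count all reads of a gene and do not tell its transcripts apart.

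Because RPKM divides by the length of the whole transcript, while the reads of a 3′ library do not grow in number with that length, the order of genes by RPKM holds only on this scale and ranks long transcripts lower than a count of molecules would. On that scale Birc3 led with a mean of 34.3 RPKM over the 7 libraries and was above Fas, next in the order, in 7 of 7 libraries. Fas (12.9 RPKM), Casp8 (10.4 RPKM) and Cflar (9.33 RPKM) were not separated, since Fas exceeded Casp8 in 4 of 7 libraries and Casp8 exceeded Cflar in 3 of 7. Cflar was above Apaf1 (6.81 RPKM) in 7 of 7 libraries, and Apaf1 was above Birc2 (4.01 RPKM) in 7 of 7. Birc2, Xiap (3.93 RPKM) and Casp9 (3.75 RPKM) stood close together, with Birc2 above Xiap in 5 of 7 libraries and Xiap above Casp9 in 3 of 7. Tnfrsf10b was lowest, at 2.91 RPKM, and was below Casp9 in 6 of 7 libraries. By mean RPKM the 9 genes ran from the 24.0 percentile (Tnfrsf10b) to the 81.5 percentile (Birc3) of the genes tested, and each was detected in every library.

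**Figure D1:**
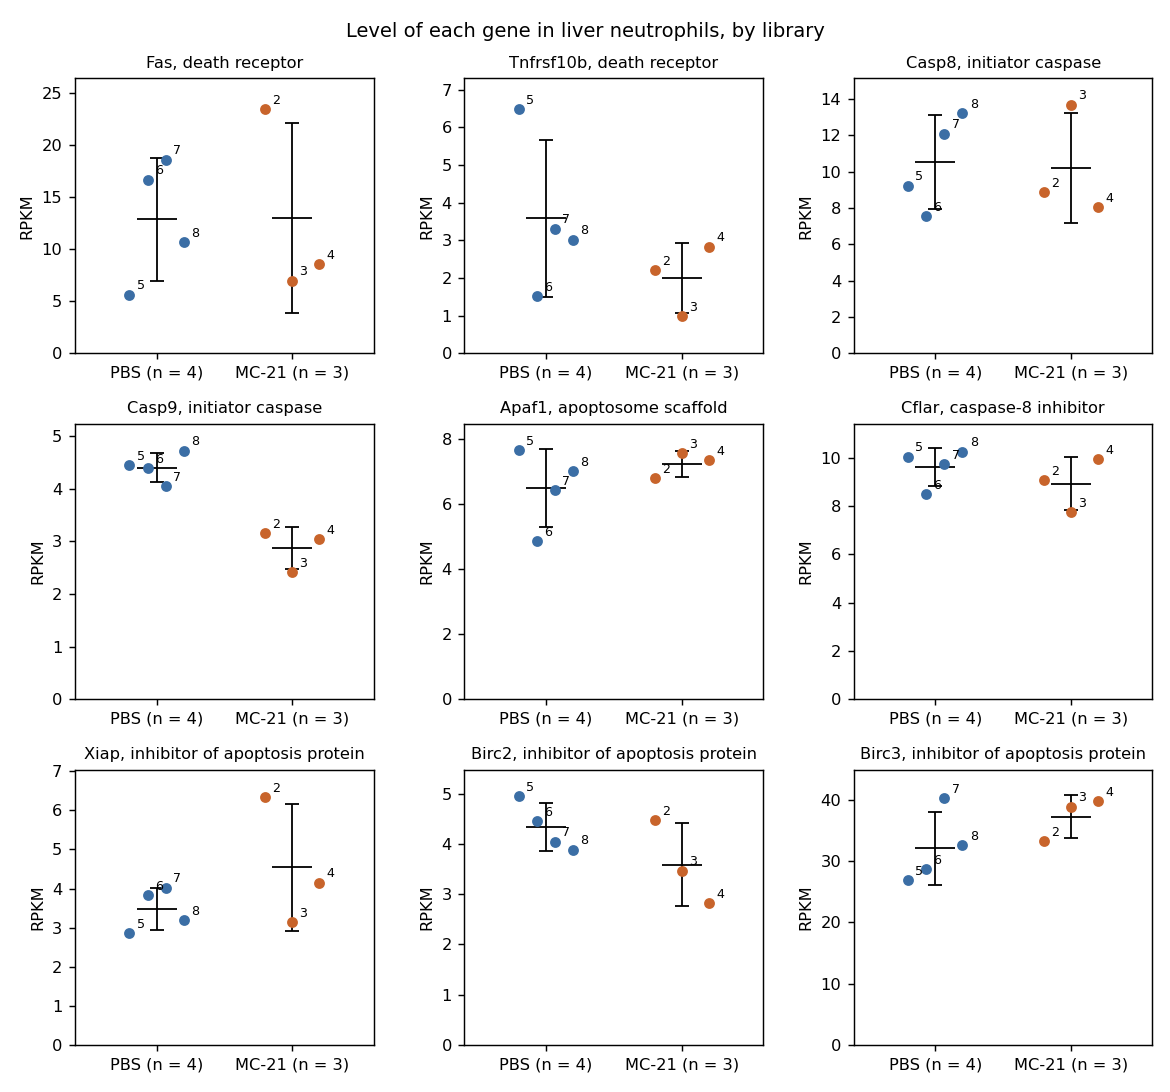
RPKM of each of the 9 genes (vertical axes, from 0, 1 scale per gene) in PBS and MC-21 libraries, with points for libraries numbered by replicate and bars for the mean ± SD. The groups are apart in Casp9 (4.05 to 4.73 against 2.42 to 3.16 RPKM) and overlap in the other genes.

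For the comparison of MC-21 with PBS neutrophils, limma was run on log2(RPKM + 1) over 9594 genes, those whose mean was 1 RPKM or more, and p-values were adjusted by Benjamini-Hochberg over all of them. Fold changes are MC-21 over PBS on this scale and understate the change of low genes. All 9 genes passed the filter. None had an adjusted p under 0.05, against 0.625% of the genes tested (60 of 9594, with 0.427% called with lower levels in MC-21 neutrophils), and the smallest among the 9 was 0.266 for Casp9. An unadjusted p under 0.05 was reached by 1 of the 9, Casp9, where 14.7% of all tested genes reached it (11.2% with lower and 3.59% with higher levels in MC-21 neutrophils). With a 2-fold change required in addition, 0 of the 9 and 2.70% of all tested genes passed. Values of the groups did not overlap for 1 of the 9, again Casp9, and for 13.3% of all tested genes. The estimated difference was below 0 for 6 of the 9 genes (66.7%) and for 69.4% of all tested genes, but with quantile normalization or centring of each library on its median it was below 0 for 3 of the 9, since Fas, Casp8 and Cflar then turned positive. The median difference was -0.05 over the 9 genes and -0.15 over all tested genes, and centring moved the latter to 0.02. The counts among the 9 genes were thus close to the background shares.

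How far the data bound a change differed between the genes. For 7 of the 9, the 95% interval of the difference lay wholly within 2-fold in both directions, as it did for 74.7% of all tested genes. The exceptions were the receptors, Fas with -1.08 to 0.97 and Tnfrsf10b with -1.38 to 0.28 on the log2 scale. For Casp8 the interval was -0.59 to 0.50, for Apaf1 -0.27 to 0.57, for Cflar -0.47 to 0.27, for Xiap -0.25 to 0.80, for Birc2 -0.67 to 0.21 and for Birc3 -0.17 to 0.61. The count was 6 of 9 with a pseudocount of 0.1, where the interval of Casp9 was -1.09 to -0.13, without MC-21 replicate 2, where that of Casp9 began at -1.01, and without MC-21 replicate 3, where that of Xiap ended at 1.01.

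**Figure D2:**
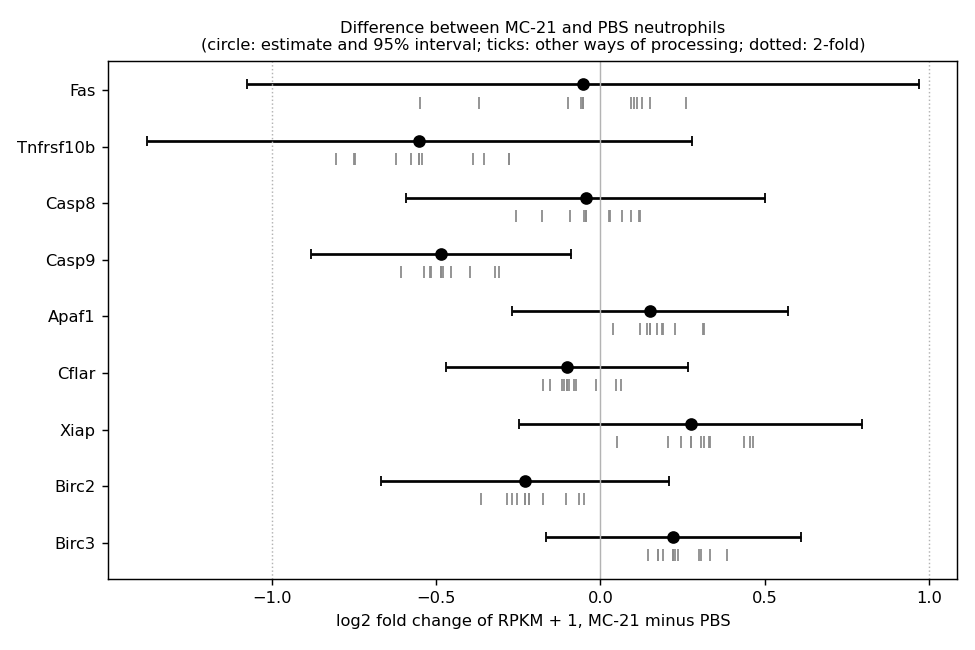
Log2 fold change of RPKM + 1, MC-21 minus PBS (horizontal axis), with the limma estimate as a circle, its 95% interval as a bar, and grey ticks for the estimates under other ways of processing. The intervals of Fas and Tnfrsf10b cross a dotted line at 2-fold and that of Casp9, from -0.88 to -0.09, is the one that does not reach 0.

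Fas, the receptor of Fas ligand (chromosome 19, 34365149 to 34402260 on the plus strand), was the most uneven of the better expressed genes. Its level was 5.62, 16.7, 18.6 and 10.7 RPKM in PBS replicates 5 to 8 and 23.5, 6.98 and 8.59 RPKM in MC-21 replicates 2 to 4. Both groups held high and low livers, the highest being MC-21 replicate 2 and the lowest PBS replicate 5, and the groups overlapped almost entirely. Means were 12.9 ± 5.90 RPKM in PBS (SD, n = 4) against 13.0 ± 9.09 RPKM in MC-21 livers (SD, n = 3), and the log2 fold change was -0.05 (SE 0.46, adjusted p = 0.968, limma). That estimate ran from -0.55 without MC-21 replicate 2 to 0.26 without MC-21 replicate 3, so that its sign rested on single livers. Between the highest and the lowest library Fas differed 4.17-fold, and its SD on the log2 scale exceeded that of 93.8% of the 500 tested genes nearest to it in level.

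The reads behind Fas are given with the intervals that counting alone would bring. The RPKM values of Fas fell on whole reads, 28, 100, 89 and 76 in PBS replicates 5 to 8 and 151, 20 and 43 in MC-21 replicates 2 to 4. These reads rest on a fitted length of 1801 bases, while the longest annotated transcript has 1486 bases and would give 16.5 to 124.6 reads. With the fitted reads, the exact 95% Poisson interval of PBS replicate 5, which ends at 8.13 RPKM, lies below that of PBS replicate 6, which begins at 13.6 RPKM. Such intervals take reads as independent and are too narrow where reads were copied from 1 molecule by PCR. The part of counting error in the range of Fas was not tested. The gene whose profile came closest to that of Fas over the 7 libraries was Hspa5, the chaperone BiP of the endoplasmic reticulum, with r = 0.99 on log2(RPKM + 1), a gene looked at after its values were seen. Hspa5 was at 13.3, 63.9, 70.0 and 25.5 RPKM in PBS replicates 5 to 8 and 84.3, 18.3 and 23.1 RPKM in MC-21 replicates 2 to 4, the same order of livers as for Fas. Both values come from the same libraries, and Hspa5 is the best match among all tested genes, so that r is a description only.

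Tnfrsf10b, the TRAIL receptor of the mouse (chromosome 14, 70167279 to 70184210 on the plus strand), had the largest estimated difference of the 9 genes and the fewest reads. Levels were 6.48, 1.51, 3.31 and 3.02 RPKM in PBS replicates 5 to 8 and 2.20, 0.988 and 2.83 RPKM in MC-21 replicates 2 to 4. PBS replicate 5 was highest, MC-21 replicate 3 was lowest, and PBS replicate 6 lay inside the MC-21 range. The means of 3.58 ± 2.09 RPKM in PBS (SD, n = 4) against 2.01 ± 0.935 RPKM in MC-21 livers (SD, n = 3) gave a log2 fold change of -0.55 (SE 0.37, adjusted p = 0.528, limma), within the spread between replicates. It shrank to -0.28 without PBS replicate 5 or without MC-21 replicate 3, and grew to -0.80 without PBS replicate 6. Behind these values stood 5 reads in MC-21 replicate 3, the library of lowest depth, and 16 to 57 reads in each other library, 194 in all. Its interval of 0.321 to 2.31 RPKM in MC-21 replicate 3 overlaps that of each other library except PBS replicate 5, which begins at 4.91 RPKM. The tested genes most like Tnfrsf10b over the 7 libraries were Slc35e4 (r = 0.99), Dennd6b (r = 0.98) and Epha2 (r = 0.98), the last a receptor tyrosine kinase. All 3 were highest in PBS replicate 5 and lowest or next to lowest in MC-21 replicate 3. They were picked for likeness to Tnfrsf10b, so that this shared order is part of that choice.

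**Figure D3:**
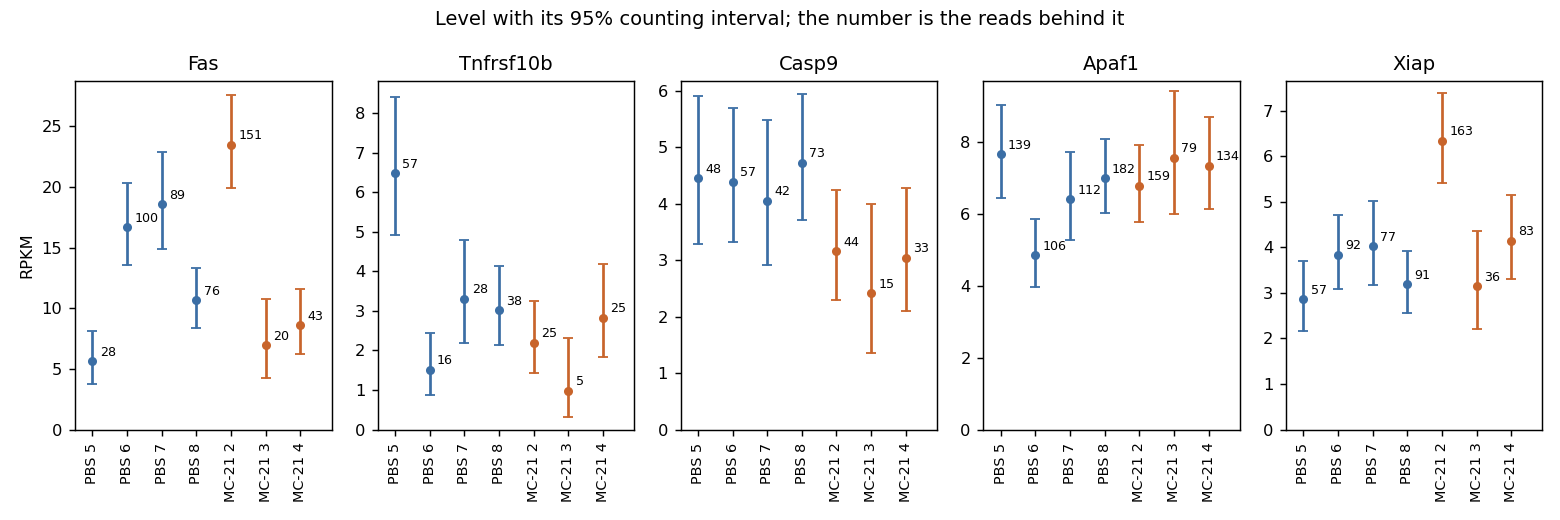
RPKM (vertical axes, from 0) of the 5 genes whose reads could be read back, 1 point per library, with the exact 95% Poisson interval of its reads as a bar and the number of reads beside it. Fas intervals in high livers (19.9 to 27.5 RPKM in MC-21 replicate 2) stand clear of those in low ones, while for Casp9 the intervals of MC-21 and PBS libraries overlap.

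Of the initiator caspases, Casp8, the protease of the receptor route (chromosome 1, 58852218 to 58904347 on the plus strand), showed no difference beyond its spread. It was at 9.23, 7.55, 12.1 and 13.2 RPKM in PBS replicates 5 to 8 and at 8.87, 13.7 and 8.05 RPKM in MC-21 replicates 2 to 4. The highest value and the second lowest were both MC-21 libraries. Means of 10.5 ± 2.60 RPKM (SD, n = 4) and 10.2 ± 3.04 RPKM (SD, n = 3) gave a log2 fold change of -0.04 (SE 0.24, adjusted p = 0.951, limma).

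Casp9, the protease of the apoptosome (chromosome 4, 141349527 to 141371891 on the plus strand), was at 4.45, 4.39, 4.05 and 4.73 RPKM in PBS replicates 5 to 8 and at 3.16, 2.42 and 3.04 RPKM in MC-21 replicates 2 to 4. All 3 MC-21 livers were below all 4 PBS livers, and values within each group were tight. The means were 4.40 ± 0.278 RPKM (SD, n = 4) and 2.87 ± 0.399 RPKM (SD, n = 3), a log2 fold change of -0.48 (SE 0.18) with a 95% interval of -0.88 to -0.09. Its p of 0.0216 from limma and 0.0286 from a two-sided exact permutation test, the smallest that 35 splits of 7 libraries allow, did not survive adjustment over all tested genes (adjusted p = 0.266), and Casp9 ranked 776 of 9594 by p. Unlike RPKM, reads are not scaled to depth, which was lowest in MC-21 replicate 3. The 312 reads of Casp9 were spread as 48, 57, 42 and 73 in PBS replicates 5 to 8 and 44, 15 and 33 in MC-21 replicates 2 to 4. Counting error alone is wide at such numbers, with an interval of 1.35 to 3.99 RPKM for MC-21 replicate 3 and of 2.92 to 5.47 RPKM for PBS replicate 7. The interval reached 0, and the unadjusted call was lost, with quantile normalization (-0.31, interval -0.72 to 0.10, adjusted p = 0.567, limma), with centring on the library median (-0.32, interval -0.73 to 0.09, adjusted p = 0.557) and without MC-21 replicate 3 (-0.40, interval -0.85 to 0.05, adjusted p = 0.428). The summed monocyte and macrophage markers and B cell markers were likewise lower in all 3 MC-21 libraries, and their part in the Casp9 values was not tested.

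Over the 7 libraries, the tested genes nearest to Casp9 in profile were Obfc1 (r = 0.99), Eif4b (r = 0.98), a translation initiation factor, and Rab22a (r = 0.98), a small GTPase of endosomes. Each of them was likewise lower in all 3 MC-21 libraries, with Eif4b at 29.5 to 32.0 RPKM in PBS and 22.8 to 26.5 RPKM in MC-21 libraries. They were picked for likeness to a gene whose groups do not overlap, so that their own separation is part of that choice.

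Apaf1, which Casp9 needs for its activation (chromosome 10, 90452056 to 90545515 on the minus strand), was even across livers. It was at 7.67, 4.85, 6.42 and 7.01 RPKM in PBS replicates 5 to 8 and at 6.79, 7.57 and 7.35 RPKM in MC-21 replicates 2 to 4, with PBS replicate 6 lowest and PBS replicate 5 highest. The means were 6.49 ± 1.20 RPKM (SD, n = 4) and 7.24 ± 0.403 RPKM (SD, n = 3), and the log2 fold change was 0.15 (SE 0.19, adjusted p = 0.746, limma). With 911 reads in all it was the best counted of the 5 genes whose reads could be read back.

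Cflar, the decoy of Casp8, was the steadiest of the 9 genes. It was at 10.05, 8.49, 9.73 and 10.2 RPKM in PBS replicates 5 to 8 and at 9.08, 7.75 and 9.95 RPKM in MC-21 replicates 2 to 4. The highest library exceeded the lowest 1.32-fold, the coefficient of variation over all 7 was 9.95%, and only 3.60% of the 500 tested genes nearest in level had a smaller SD. Its means of 9.63 ± 0.790 RPKM (SD, n = 4) and 8.93 ± 1.11 RPKM (SD, n = 3) gave a log2 fold change of -0.10 (SE 0.16, adjusted p = 0.811, limma). Cflar (chromosome 1, 58768352 to 58815728) and Casp8 are neighbours on the same strand, 36489 bases apart, and their annotated transcripts share 0 words of 50 bases, so that a read of that length from one of them is not found in the other. Casp8 varied 1.81-fold over the same libraries.

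Xiap, the direct inhibitor of caspases (chromosome X, 39412856 to 39462833 on the plus strand), had the highest estimate of the 9 genes, which rested on MC-21 replicate 2. It was at 2.86, 3.84, 4.02 and 3.19 RPKM in PBS replicates 5 to 8 and at 6.34, 3.14 and 4.14 RPKM in MC-21 replicates 2 to 4. Apart from MC-21 replicate 2, all libraries lay between 2.86 and 4.14 RPKM. The means of 3.48 ± 0.543 RPKM (SD, n = 4) and 4.54 ± 1.63 RPKM (SD, n = 3) gave a log2 fold change of 0.27 (SE 0.23, adjusted p = 0.630, limma), and 0.05 without that library. It was read 163 times in MC-21 replicate 2 and 36 to 92 times in each other library.

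Birc2 and Birc3 encode cIAP1 and cIAP2, ubiquitin ligases that lie side by side on the minus strand of chromosome 9, Birc2 from 7818236 to 7835255 and Birc3 from 7848699 to 7873186, with 13443 bases between them. Birc2 was at 4.95, 4.45, 4.04 and 3.88 RPKM in PBS replicates 5 to 8 and at 4.47, 3.47 and 2.82 RPKM in MC-21 replicates 2 to 4, and Birc3 was at 26.9, 28.7, 40.3 and 32.6 RPKM and at 33.3, 38.9 and 39.8 RPKM in the same order. For both genes the groups overlapped, through MC-21 replicate 2 in Birc2 and through PBS replicate 7 in Birc3. Birc2 had means of 4.33 ± 0.477 RPKM (SD, n = 4) and 3.59 ± 0.832 RPKM (SD, n = 3), and its log2 fold change was -0.23 (SE 0.19, adjusted p = 0.633, limma). Birc3, which is itself a target of NF-kappaB, had means of 32.1 ± 5.93 RPKM (SD, n = 4) and 37.3 ± 3.54 RPKM (SD, n = 3), and its log2 fold change was 0.22 (SE 0.17, adjusted p = 0.594, limma). Only 65 words of 50 bases occur in both genes' transcripts, 2.11% of those of Birc2 and 1.43% of those of Birc3, and how the authors counted reads that map to both is not given in the sources used here. Over the 7 libraries Birc2 and Birc3 had r = -0.78 on log2(RPKM + 1), the lowest of the 36 pairs among the 9 genes, and the highest was that of Tnfrsf10b and Cflar (r = 0.85). All pairs come from the same 7 libraries and share their depth and scaling.

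A ratio of RPKM within a library does not depend on the scaling of that library, and is given here for 3 pairs of an inhibitor or paralog and its partner, as a description with no test. Xiap over Casp9 was 0.643, 0.874, 0.993 and 0.675 in PBS replicates 5 to 8 and 2.01, 1.30 and 1.36 in MC-21 replicates 2 to 4, means of 0.796 ± 0.166 (SD, n = 4) and 1.56 ± 0.391 (SD, n = 3). Every MC-21 liver thus had more Xiap than Casp9 RPKM and every PBS liver less, and the groups did not overlap. The crossing of 1 holds only on this scale, which divides by length, fitted as 7202 bases for Xiap and 3899 for Casp9. By reads, Xiap was above Casp9 in every library, as with 57 against 48 in PBS replicate 5 and 36 against 15 in MC-21 replicate 3. On log2(RPKM + 1), where the added 1 keeps some dependence on scaling, the difference between the groups was 0.76. It was 0.94 with a pseudocount of 0.1, and 0.59 to 0.86 with each library left out in turn. Casp9 alone already had groups apart, and the share of other gene pairs with groups apart was not computed.

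Birc3 over Birc2 was 5.43, 6.46, 9.97 and 8.39 in PBS replicates 5 to 8 and 7.44, 11.2 and 14.1 in MC-21 replicates 2 to 4, with overlap through MC-21 replicate 2. Cflar over Casp8 was 1.09, 1.12, 0.805 and 0.775 in PBS replicates 5 to 8 and 1.02, 0.566 and 1.24 in MC-21 replicates 2 to 4. The last of these ratios held both the lowest and the highest value within the MC-21 group, and its means of 0.948 ± 0.184 (SD, n = 4) and 0.942 ± 0.342 (SD, n = 3) were nearly equal.

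**Figure D4:**
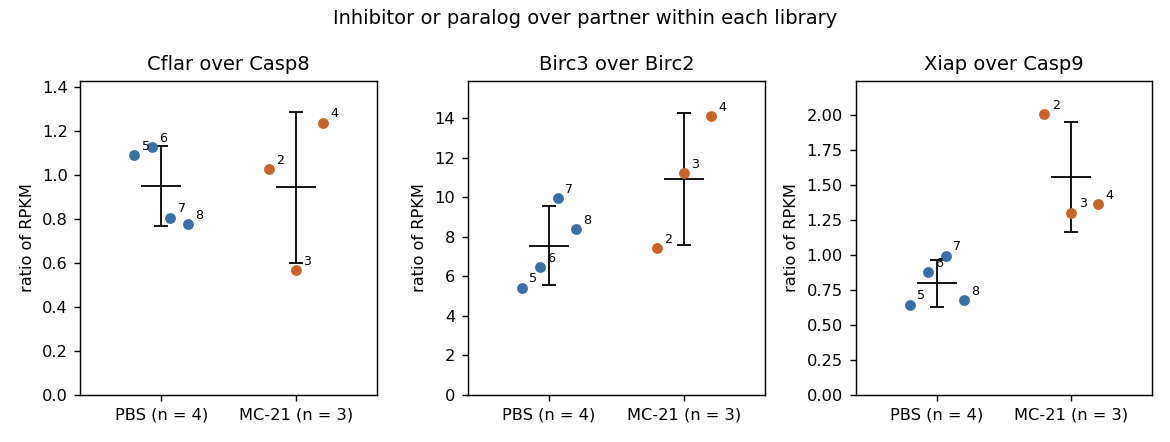
Ratio of RPKM within each library (vertical axes, from 0) for Cflar over Casp8, Birc3 over Birc2 and Xiap over Casp9, with points for libraries numbered by replicate and bars for the mean ± SD. Xiap over Casp9 is at 0.643 to 0.993 in PBS and at 1.30 to 2.01 in MC-21 libraries, and the other ratios overlap.

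Around these 9 genes, lists of other genes of the pathway were read from the same fit by role. Of their genes, 67 were in the table and 49 were tested, 31 of these with an estimate below 0 and 18 above, or 23 below and 26 above with quantile normalization or centring. An adjusted p under 0.05 was reached by 0 of the 49, the smallest being 0.102, and an unadjusted p under 0.05 by 11 (22.4%, against 14.7% of all tested genes), 7 with lower and 4 with higher levels in MC-21 livers. Groups did not overlap for 9 of the 49 (18.4%, against 13.3%). The median difference was -0.11, beside -0.15 over all tested genes. Since none passed after adjustment, the values of the named genes are given as measured.

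Among ligands, Fasl was at 0 in every library except PBS replicate 7, where it was at 0.194 RPKM, and Tnfsf10, which encodes TRAIL, was at 0.0727 to 1.68 RPKM, or 1 to 33 reads, highest in PBS replicate 8. The ligands of both receptors were thus sparse in these cells. Tnf was abundant, at 119.7 ± 20.6 RPKM in PBS (SD, n = 4) against 89.7 ± 23.8 RPKM in MC-21 livers (SD, n = 3), with overlap (log2 fold change -0.43, adjusted p = 0.364, limma). Its receptor Tnfrsf1a was the most highly expressed death receptor, at 271 ± 8.69 RPKM (SD, n = 4) and 302 ± 45.6 RPKM (SD, n = 3), far above Fas and Tnfrsf10b on the same scale. Tnfrsf23, a TRAIL decoy receptor, followed with a mean of 25.7 RPKM. Of the 4 other receptors tested, 0 had an unadjusted p under 0.05.

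The adaptors at these receptors held 15 tested genes, 3 of them (20%) with an unadjusted p under 0.05, against 14.7% of all tested genes. Tnfaip3, which encodes the ubiquitin-editing enzyme A20, was at 18.3 to 36.4 RPKM in PBS and at 45.4 to 57.6 RPKM in MC-21 libraries, with no overlap (log2 fold change 0.85, SE 0.23, adjusted p = 0.156, limma). Map3k14, the kinase NIK that is held down by Birc2 and Birc3, was at 5.77 to 8.53 RPKM and 10.4 to 13.1 RPKM, also apart (0.57, adjusted p = 0.215). Fadd, the adaptor between Fas and Casp8, was at 4.16 ± 1.26 RPKM in PBS (SD, n = 4) against 2.30 ± 0.863 RPKM in MC-21 livers (SD, n = 3), with overlap (-0.64, adjusted p = 0.314). Otulin, a deubiquitinase of linear chains and one of the top genes of this role by level, had a mean of 26.1 RPKM.

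Other regulators of Casp8 held only 2 tested genes, and in both the groups were apart, with lower levels in MC-21 livers, as they were for 10.2% of all tested genes. Pea15a, a death effector domain protein that binds Fadd and Casp8, was at 56.3, 44.3, 57.0 and 61.3 RPKM in PBS replicates 5 to 8 and at 33.3, 36.9 and 31.4 RPKM in MC-21 replicates 2 to 4 (log2 fold change -0.67, SE 0.16, adjusted p = 0.102, limma). Faim, a Fas apoptosis inhibitory molecule, was at 40.3 ± 4.15 RPKM (SD, n = 4) and 29.3 ± 7.90 RPKM (SD, n = 3), with a gap of less than 1 RPKM between the groups (-0.47, adjusted p = 0.324). Of the 3 necroptosis genes tested, Zbp1 (mean 16.6 RPKM), Ripk3 (11.6 RPKM) and Mlkl, 0 had an unadjusted p under 0.05.

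At the apoptosome, cytochrome c (Cycs) was at 57.5 ± 3.83 RPKM in PBS (SD, n = 4) against 61.1 ± 12.2 RPKM in MC-21 livers (SD, n = 3), and Aven, which binds Apaf1, had a mean of 10.03 RPKM. Nol3, an inhibitor that binds caspases and their adaptors, was at 1.67 to 3.75 RPKM in PBS and 0.0513 to 2.46 RPKM in MC-21 libraries (log2 fold change -0.95, adjusted p = 0.316, limma). Its lowest value, in MC-21 replicate 3, stood for about 0.23 reads at the longest annotated transcript, so that the estimate includes a value at the floor. None of these genes separated the groups.

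Casp6, an executioner caspase that cuts lamins, was at 14.2, 13.4, 14.5 and 15.9 RPKM in PBS replicates 5 to 8 and 16.9, 29.8 and 19.3 RPKM in MC-21 replicates 2 to 4, with no overlap (log2 fold change 0.53, adjusted p = 0.285, limma). Of the remaining caspases and their adaptors, Casp4, which responds to cytosolic lipopolysaccharide, was at 25.7 to 58.3 RPKM and Cradd had a mean of 9.86 RPKM.

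Of the other inhibitor of apoptosis genes, Naip2 (mean 6.31 RPKM) and Birc6 were tested, and both had an interval that spans 0. Their antagonists released from mitochondria differed in estimate. Htra2 was at 24.6 ± 1.74 RPKM in PBS (SD, n = 4) against 18.8 ± 1.34 RPKM in MC-21 livers (SD, n = 3), with no overlap (log2 fold change -0.37, adjusted p = 0.294, limma), whereas Diablo was at 12.8 ± 1.39 and 13.9 ± 1.17 RPKM (0.12, adjusted p = 0.777). The difference between these genes was not tested.

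Caspase substrates included 9 tested genes, 3 of them (33.3%) with an unadjusted p under 0.05, against 14.7% of all tested genes. Parp1, a nuclear enzyme of DNA repair, was at 5.96 to 8.77 RPKM in PBS and 3.10 to 3.88 RPKM in MC-21 libraries (log2 fold change -0.77, SE 0.19, adjusted p = 0.120, limma), with no overlap. The lamin gene Lmna was at 8.75 to 13.5 RPKM and 4.30 to 7.83 RPKM (-0.68, adjusted p = 0.241), also apart, while Lmnb1, encoding another lamin, was at 60.0 to 83.9 RPKM and 75.1 to 131 RPKM, with overlap (0.46, adjusted p = 0.336). Rock1, the kinase of membrane blebbing, was at 0.935 to 1.36 RPKM and 1.73 to 2.35 RPKM with no overlap (0.45, adjusted p = 0.340). Dfna5, which encodes gasdermin E, had a mean of 18.4 RPKM.

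**Figure D5:**
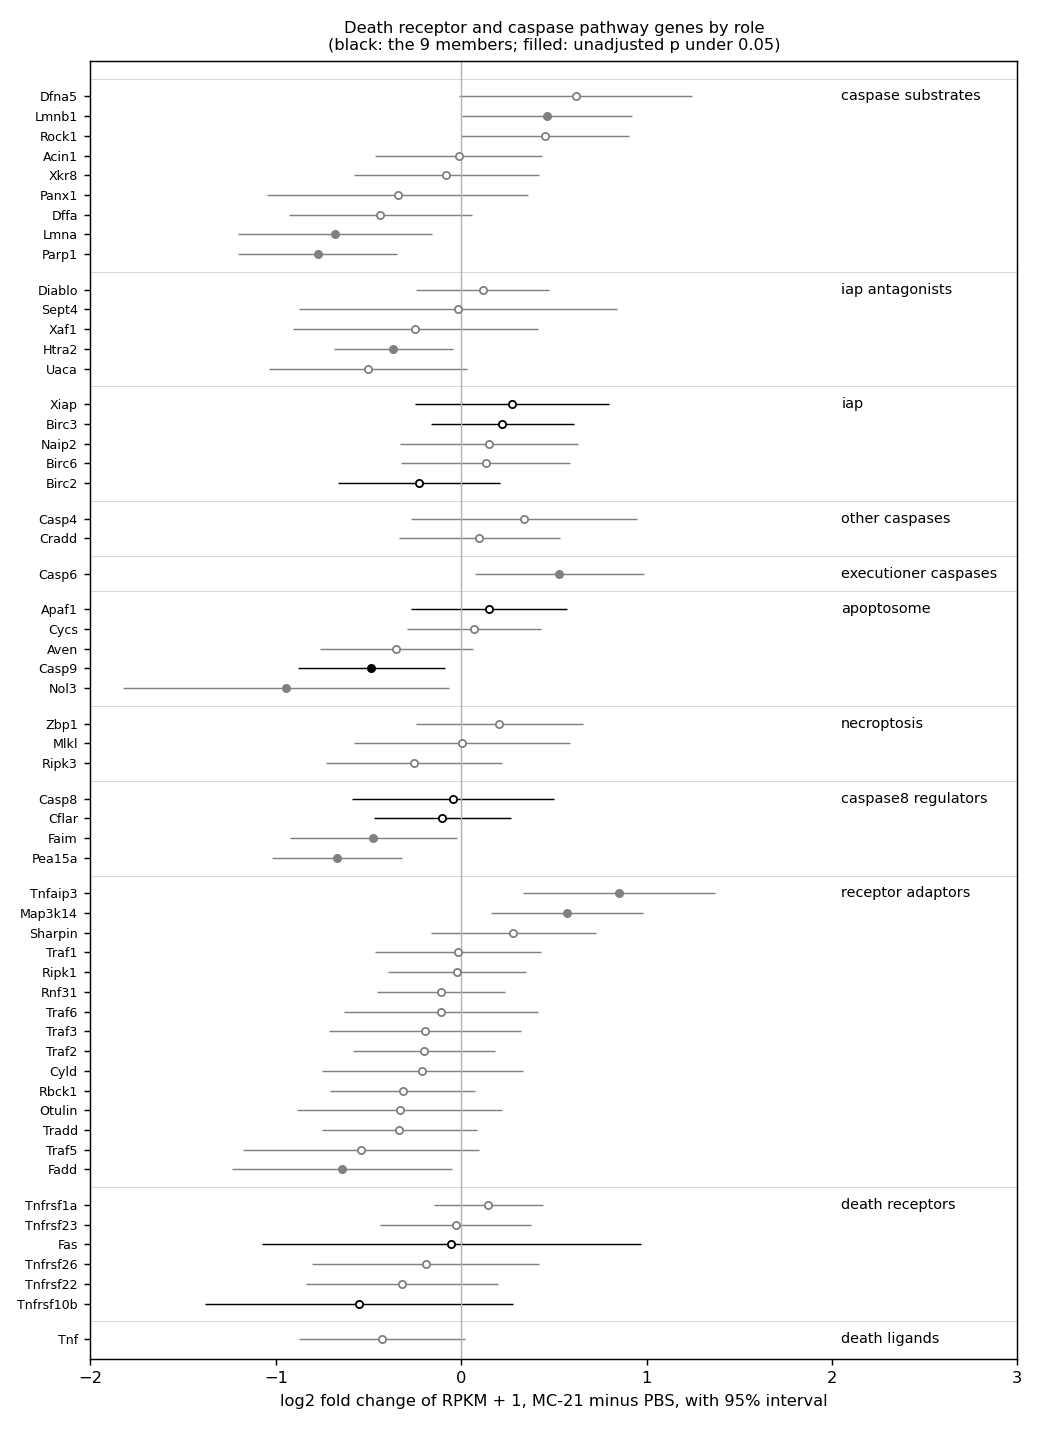
Log2 fold change of RPKM + 1, MC-21 minus PBS (horizontal axis), with its 95% interval as a bar, for the 9 genes (black) and other tested genes of the pathway (grey), grouped by role and filled where the unadjusted p was under 0.05. Estimates lie on both sides of 0 in most roles, from -0.95 for Nol3 to 0.85 for Tnfaip3, and no gene had an adjusted p under 0.05.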

How the data were processed

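Neutrophils from 7 livers were sequenced as 3′ RNA-seq libraries on an Illumina NextSeq. Per the labels, the authors ran bcl2fastq, mapped reads to mm9 with HISAT 0.1.5, converted alignments with SAMtools, and deposited RPKM values per gene from Partek Genomics Suite 6.6. The transcript annotation and the treatment of reads that map to several places are not given in the sources used here.

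Samples were grouped by their labels. Differences were fitted with limma 3.58.1 (R 4.3.3; lmFit, then eBayes with its trend option) on log2(RPKM + 1), for genes whose mean was 1 RPKM or more, in place of the study's t-test on RPKM, and p-values were adjusted by Benjamini-Hochberg over all of these genes. A gene was called at an adjusted p under 0.05. The fit was also run on simulated data, with changes larger than any difference among the 9 genes, which does not bear on detection at their size. Single genes also had a two-sided exact permutation test over 35 splits.

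Depth was read from low RPKM values of 982 genes, of which 45.5% gave the chosen depth within 1%. Of 5172 low values of the same genes, 74.7% lay within 0.1 of a whole read (20% for values spread evenly). Since the depth was set on these genes, that 20% is not a strict comparison. Reads of 5 of the 9 genes were whole within 0.001 in all libraries, at a fitted length between 300 and 9000 bases. Lengths were fitted to the values and may differ from the authors'. Coordinates and sequences came from the mm9 annotation.

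The genes and lists were chosen with earlier results of these data known. Named beside the 9 genes are pathway genes with an unadjusted p under 0.05 and the 2 highest in each role by mean RPKM, and, for the 2 members with the largest differences, the 3 most like genes by Pearson's r. Mlkl, Birc6, Rock1, Fasl, Ly6g, Fcgr3, Cd177, Ccr2, Ms4a7, Vsig4 and Hspa5 were named after their values were seen. Results of 2 pathway genes are not reported singly here and stayed in the fits and counts. Alternatives were a pseudocount of 0.1, no filter, a filter at a mean of 5 RPKM, quantile normalization, centring on the library median, no trend, and leaving out each library. Python 3.11.15, numpy 2.4.6, pandas 2.3.3, scipy 1.17.1 and matplotlib 3.10.9 were used.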

Additional observations from a re-analysis of the deposited data

How the results depend on the processing

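Under 13 alternatives, 0 of the 9 genes and 0 of the other pathway genes had an adjusted p under 0.05, the smallest among the 9 being 0.228. Of 113 estimates for the 9 genes, 99 kept their direction and 14 did not. With quantile normalization and with centring on the library median, respectively, the log2 fold change was 0.092 and 0.11 for Fas, 0.12 and 0.12 for Casp8, and 0.048 and 0.062 for Cflar. With each library left out in turn, it ran from -0.55 to 0.26 for Fas, being 0.10, 0.15, 0.26 and 0.13 without PBS replicates 6 and 7 and MC-21 replicates 3 and 4, and from -0.26 to 0.093 for Casp8, being 0.026, 0.066, 0.030 and 0.093 without PBS replicates 7 and 8 and MC-21 replicates 2 and 4. Casp9 ran from -0.61 to -0.31 over all alternatives, with an adjusted p of 0.228 to 0.567. The filter at 5 RPKM left 5 of the 9 genes in the test, without Tnfrsf10b, Casp9, Xiap and Birc2.

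Over all tested genes, 60 had an adjusted p under 0.05, and 4 with no filter on low values, which tests 16047 genes. With a library left out the count was lowest without PBS replicate 8, at 9, and highest without PBS replicate 6, at 102, and it was 14 without PBS replicate 7, and 19, 35 and 18 without MC-21 replicates 2, 3 and 4. Of the calls, 41 of 60 were lower in MC-21 neutrophils, 29 of 55 with quantile normalization and 30 of 74 with centring. The cause of these shifts was not tested. No paired analysis was possible because the groups share no replicate number. The few reads per gene, down to 5 for Tnfrsf10b in a library, and 3 MC-21 livers limit what can be detected.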

Other observations

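Dixon's test for an outlying library among the 4 PBS libraries was applied to the 9 genes and the 3 differences between them, 12 in all, and none passed its critical value. Several caspase and death receptor genes were below the level tested. Casp1 was at 0.00 to 1.59 RPKM, Casp2 at 0.00 to 0.43 RPKM and Casp12 at 0.00 to 0.72 RPKM over the 7 libraries. Among receptors, Tnfrsf21 was at 0.20 to 0.75 RPKM and Tnfrsf25 at 0.00 to 0.99 RPKM, and Edar and Ngfr did not exceed 0.22 RPKM. Birc5, which encodes survivin of dividing cells, was at 0.00 to 2.39 RPKM.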
